A study of Mus musculus with 6 samples.

Results

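The genes described here are the mouse Fc gamma receptors Fcgr1, Fcgr2b, Fcgr3 and Fcgr4 and the signalling adaptors Fcer1g and Tyrobp. They were taken by gene symbol, 6 genes of the 16403 in the deposited table. All 6 passed the filter on low counts and were among the 12564 genes tested. Bulk polyA RNA-seq was done on 6 libraries of LSK cells sorted from bone marrow, the lineage-negative, Sca-1-positive, Kit-positive bone marrow fraction that holds blood stem cells and early progenitors. The LIP group had 3 libraries from C57BL/6 mice with ligature-induced periodontitis for 7 days. In this model a thread tied around a tooth provokes local gum inflammation and bone loss. The NL group had 3 libraries from C57BL/6 mice without a ligature. Each library pooled marrow cells of 3 mice, so the spread between libraries is a spread between pools and not between animals. The comparison asks whether gum inflammation alters progenitors in the distant marrow. Library totals were 17780853 to 18841103 estimated counts.

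Fc gamma receptors are membrane proteins of blood cells that bind the constant part of immunoglobulin G. Fcgr1, Fcgr3 and Fcgr4 encode activating receptors, which in mice carry no signalling motif of their own and depend on the adaptor encoded by Fcer1g. That adaptor and the one encoded by Tyrobp carry an ITAM, an immunoreceptor tyrosine-based activation motif, whose tyrosines are phosphorylated by Src-family kinases and then recruit the kinase Syk. Fcgr2b encodes the inhibitory receptor of the family, whose inhibitory motif (ITIM) recruits the phosphatase encoded by Inpp5d. Among progenitors, surface protein of Fcgr3 and Fcgr2b is high on granulocyte-monocyte progenitors, for which it is a standard sorting marker, and Fcer1g and Tyrobp are abundant in mature myeloid and natural killer cells.

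Of the 6 genes, Fcgr3 and Fcgr2b were called higher in LIP and none was called lower, against 14.1% of all tested genes called higher and 15.8% called lower. With DESeq2 only Fcgr3 was called, against 9.86% of the genes it tested called higher. The rise of Fcgr3 was 1.22-fold and was called in all 17 alternative fits with a test. The rise of Fcgr2b was 1.12-fold and was lost in 5 of them. The abundant adaptor genes Fcer1g and Tyrobp were not called, and both were called higher once a trend of the fold changes on transcript length was removed. Fcgr1 and Fcgr4 were near the lower end of what could be tested.

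Levels between genes can be compared only per transcript length, so the order of the genes is given in the authors' deposited TPM, a relative abundance per transcript length, over all 6 libraries. Tyrobp was the most abundant, with a mean of 302 TPM and a range of 285 to 331 TPM, which placed it at the 97.6th percentile of the table. Fcer1g followed with 220 TPM (193 to 243 TPM), at the 96.4th percentile. Both adaptors thus stood in the top of the LSK transcriptome. Fcgr3 had a mean of 72.6 TPM (61.2 to 87.7 TPM) and Fcgr2b of 35.8 TPM (31.0 to 42.1 TPM). Fcgr4 stood at 2.02 TPM (1.39 to 2.60 TPM) and Fcgr1 at 0.833 TPM (0.64 to 1.15 TPM). No neighbours in this order overlapped in any library. Almost all activating receptor mRNA came from Fcgr3, which made up 95.76%, 97.65% and 96.4% of the summed TPM of Fcgr1, Fcgr3 and Fcgr4 in LIP libraries and 96.33%, 95.65% and 94.98% in NL libraries.

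Between LIP and NL, levels are given below as CPM, counts relative to the TMM-scaled library size, and a gene was called when its adjusted p in edgeR's quasi-likelihood test was under 0.05. Fold changes are LIP over NL. On the TPM scale the median of all tested genes was itself 0.12 higher in LIP (log2), so TPM differences between the groups are read relative to that shift.

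**Figure D1:**
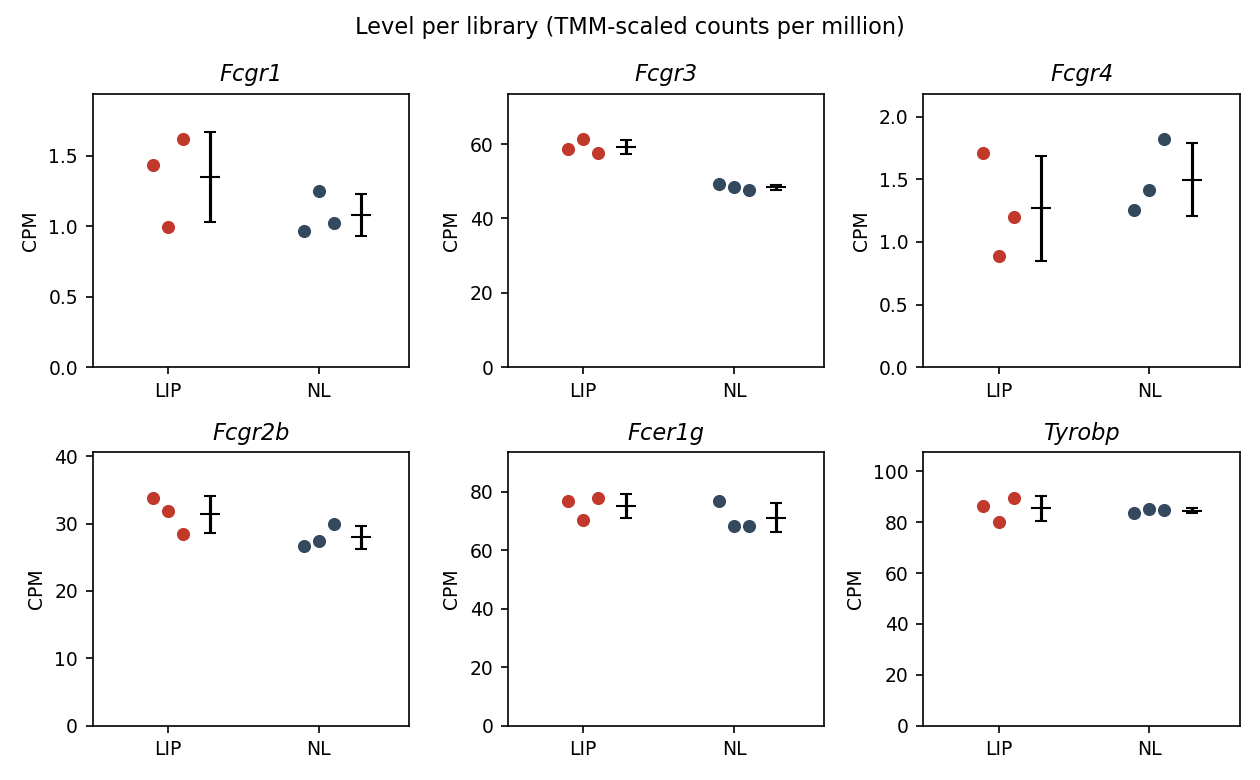
Level of each gene in TMM-scaled CPM (vertical axis, from 0), with 1 point per library, LIP libraries left of NL libraries, and the mean ± SD over 3 libraries beside them. Only Fcgr3 has all 3 LIP libraries (57.6 to 61.3 CPM) above all 3 NL libraries (47.7 to 49.1 CPM).

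Fcgr3, the low-affinity activating receptor for immunoglobulin G complexes (chr1:171051169-171065915, GRCm38), had 58.8, 61.3 and 57.6 CPM in LIP libraries, against 49.1, 48.4 and 47.7 CPM in NL libraries. The groups did not overlap, a separation that 19.9% of all tested genes showed with LIP above and 21% with LIP below. The mean was 59.2 ± 1.89 CPM in LIP and 48.4 ± 0.719 CPM in NL (SD, n = 3 each). The log2 fold change was 0.29 ± 0.05 (SE), with a 95% interval of 0.20 to 0.39 and an edgeR adjusted p of 1.22e-06. Over the 17 alternative fits with a test it ranged from 0.27 without LIP replicate 2 to 0.36 with the length offset described below. In bulk libraries, more cells that carry the mRNA and more mRNA per cell cannot be told apart.

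Fcgr2b, the inhibitory receptor (chr1:170960558-170976071), had 33.8, 31.8 and 28.4 CPM in LIP libraries, against 26.6, 27.4 and 29.9 CPM in NL libraries. The groups overlapped, because LIP replicate 3 lay below NL replicate 3. The log2 fold change was 0.16 ± 0.06 (SE), with a 95% interval of 0.04 to 0.29 and an edgeR adjusted p of 0.0371. The call was lost with DESeq2 (adjusted p = 0.145) and in edgeR without LIP replicate 1 (0.257), LIP replicate 2 (0.105), NL replicate 1 (0.172) or NL replicate 2 (0.127). Its direction stayed positive in all of these.

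Counts of Fcgr2b and Fcgr3 are not fully separate measurements. The deposited estimated counts of both genes had decimals in all 6 libraries, while those of the other 4 genes were whole in all 6. In GENCODE M21, the coding sequences of Fcgr2b and Fcgr3 were 90.4% identical over 781 aligned bases, against 73.0% to 78.0% for the other pairs of the 4 receptor genes. They shared 44 distinct stretches of 100 bases, the labelled read length, which was 2.7% of the 100-base stretches of Fcgr3 transcripts and 1.14% of those of Fcgr2b. No other pair among the 6 genes shared any. The longest identical coding run, 129 bases across the junction of exons 3 and 4, is shown inside a window of 179 bases because a read that lies wholly inside the run cannot be assigned to either gene by its sequence. Capitals mark the 3 bases that differ, read 5′ to 3′ on the coding strand. The genomic spans include the intron, which is not printed: chr1:170966649-170968106 (minus strand) for Fcgr2b and chr1:171054142-171057817 (minus strand) for Fcgr3.
Fcgr2b: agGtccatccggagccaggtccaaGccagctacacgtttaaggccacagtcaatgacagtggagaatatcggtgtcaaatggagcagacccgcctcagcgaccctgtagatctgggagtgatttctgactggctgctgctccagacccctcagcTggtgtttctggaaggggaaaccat
Fcgr3: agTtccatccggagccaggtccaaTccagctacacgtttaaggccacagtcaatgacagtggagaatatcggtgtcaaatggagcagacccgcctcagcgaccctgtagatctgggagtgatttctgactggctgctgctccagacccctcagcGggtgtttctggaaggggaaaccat
With the counts of Fcgr2b, Fcgr3 and Fcgr4 summed before the test, so that the split no longer mattered, the sum averaged 91.9 ± 4.0 CPM in LIP and 77.9 ± 1.34 CPM in NL (SD, n = 3 each). Its log2 fold change was 0.24 ± 0.04 (SE), with an edgeR adjusted p of 5.12e-06. The balance between the activating and the inhibitory gene, as the ratio of Fcgr3 to Fcgr2b in TPM, was 1.94, 2.15 and 2.24 in LIP libraries and 2.05, 1.97 and 1.80 in NL libraries. The ratios of the groups overlapped, with a two-sided exact permutation p of 0.3, where 3 against 3 libraries cannot go below 0.1.

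Fcgr1 and Fcgr4 rested on few reads. Fcgr1, the high-affinity receptor (chr3:96282909-96293969), had 26, 19 and 31 counts in LIP libraries and 17, 22 and 18 counts in NL libraries. Its log2 fold change was 0.32 ± 0.26 (SE), with a 95% interval of -0.21 to 0.85 and an edgeR adjusted p of 0.392. Fcgr4, an activating receptor that lies between Fcgr2b and Fcgr3 on the chromosome (chr1:171018926-171029761), had 31, 17 and 23 counts in LIP libraries and 22, 25 and 32 counts in NL libraries. Its log2 fold change was -0.25 ± 0.25 (SE), with a 95% interval of -0.75 to 0.26 and an edgeR adjusted p of 0.503. For both genes the groups overlapped. The interval of Fcgr1 includes a rise, and that of Fcgr4 a fall, as large as the change of Fcgr3, so such differences were not detectable at this depth.

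The adaptor genes are shown by the coding bases of the motif that defines them, each of 15 codons, with the 2 tyrosine codons of the ITAM in capitals. For Fcgr2b the 6 codons of its ITIM are given for contrast, with the tyrosine codon in capitals. A pattern search found no ITAM in the coding sequences of the 4 receptor genes. The stretches come from GENCODE M21 transcripts on GRCm38 and are read 5′ to 3′ on the coding strand. That of Fcer1g (chr1:171229889-171230072, minus strand) and that of Tyrobp (chr7:30415670-30417382, plus strand) each cross the junction of exons 4 and 5, with the intron not printed. That of Fcgr2b lies in exon 8 (chr1:170961071-170961088, minus strand).
Fcer1g ITAM: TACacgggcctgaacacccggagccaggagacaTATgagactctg
Tyrobp ITAM: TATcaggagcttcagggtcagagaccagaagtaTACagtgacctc
Fcgr2b ITIM: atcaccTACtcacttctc

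Fcer1g, the adaptor chain shared by activating Fc receptors (chr1:171229572-171234349), had 76.7, 70.4 and 78.0 CPM in LIP libraries, against 76.9, 68.2 and 68.2 CPM in NL libraries. NL replicate 1 lay above 2 of the 3 LIP libraries, so the groups overlapped. The log2 fold change was 0.08 ± 0.05 (SE), with a 95% interval of -0.02 to 0.17 and an edgeR adjusted p of 0.212. Without NL replicate 1 it was 0.14 with an adjusted p of 0.0355, and with library totals alone 0.12 with an adjusted p of 0.0372, a scaling under which 21.9% of all tested genes were called higher.

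Tyrobp, an adaptor that pairs with receptors of the TREM, NKG and related families rather than with Fc gamma receptors (chr7:30413782-30417582), had 86.4, 80.3 and 89.7 CPM in LIP libraries, against 83.5, 85.2 and 85.0 CPM in NL libraries. The LIP libraries lay on both sides of the NL libraries. The log2 fold change was 0.01 ± 0.04 (SE), with a 95% interval of -0.07 to 0.10 and an edgeR adjusted p of 0.829. Without LIP replicate 3 it was -0.02. The interval leaves out a change of the size seen for Fcgr3 under this scaling.

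Fold changes moved with transcript length, and both adaptor transcripts are short. Their effective lengths, derived from the deposited FPKM and counts, were 571 bases for Fcer1g and 482 bases for Tyrobp, against 1162 to 2511 bases for the 4 receptor genes. Short transcripts were generally lower in LIP. The 192 tested genes with an effective length under 500 bases had a median log2 fold change of -0.28, and the 859 genes of 500 to 1000 bases a median of -0.14, while the 3416 genes over 4000 bases had a median of 0.04. Set against each gene's NL mean on the log2 scale, the 1051 genes under 1000 bases had medians of -0.13, -0.21 and -0.12 in LIP libraries and -0.01, 0.02 and 0.00 in NL libraries. LIP replicate 2, the lowest for these short transcripts, was also the lowest LIP library for Fcer1g and Tyrobp.

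With an offset per library for this trend, Fcer1g had a log2 fold change of 0.28 (adjusted p = 7.39e-06) and Tyrobp of 0.25 (adjusted p = 2.03e-06), both in edgeR. With ribosomal protein genes, which are mostly short, left out of the trend, the values were 0.26 (adjusted p = 1.57e-05) for Fcer1g and 0.23 (adjusted p = 8.94e-06) for Tyrobp. Without an offset, Tyrobp was called in no fit and Fcer1g only with library totals alone or without NL replicate 1. With the first offset 4 of the 6 genes were called higher, against 13.2% of all tested genes, or 13.1% with the second trend. Fcgr3 stood at 0.36 and Fcgr2b at 0.21 with it. What produced the length trend was not tested. Per length, the ratio of Fcer1g to the sum of Fcgr1, Fcgr3 and Fcgr4 in TPM was 2.802, 2.505 and 2.918 in LIP libraries and 3.388, 3.007 and 3.025 in NL libraries. The LIP ratios were lower in 3 of 3 libraries, with a two-sided exact permutation p of 0.1, the smallest that 3 against 3 libraries allow. Fcer1g is shorter than the receptor genes, and the ratio was not corrected for the length trend.

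**Figure D2:**
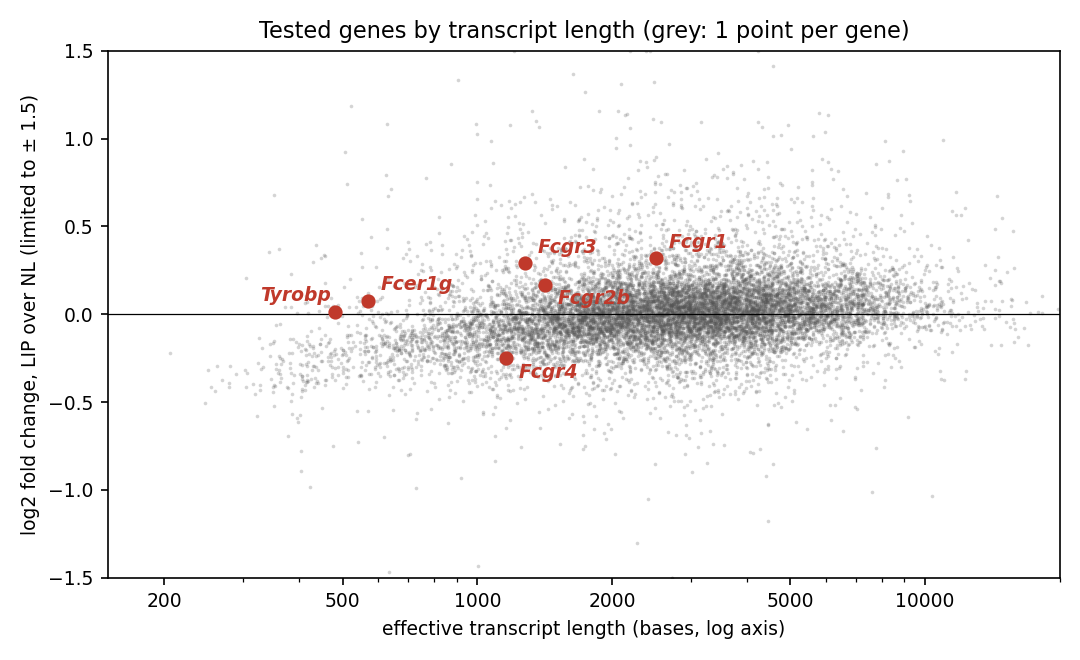
Log2 fold change, LIP over NL (vertical axis), of each tested gene against its effective transcript length in bases (horizontal log axis), with the 6 genes named in red. Short genes lie mostly below 0, and Tyrobp (482 bases) and Fcer1g (571 bases) lie above most genes of their length.

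**Figure D3:**
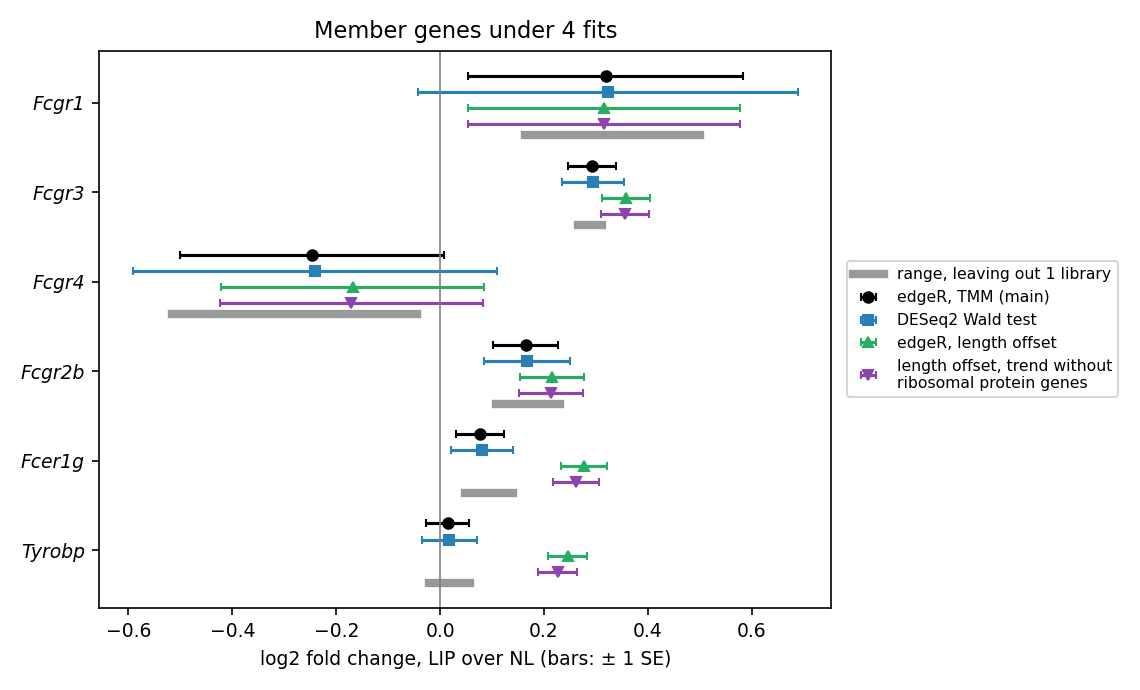
Log2 fold change, LIP over NL (horizontal axis), of the 6 genes under 4 fits (symbols, with bars of ± 1 SE), and the range when 1 library is left out (grey). Fcgr3 stays between 0.27 and 0.36, while Fcer1g and Tyrobp move from 0.08 and 0.01 to 0.28 and 0.25 with the length offset.

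Most markers of the granulocyte-monocyte and neutrophil lists were also higher in LIP. All 12 granulocyte-monocyte progenitor markers were called higher in LIP, with a median log2 fold change of 0.28. Of all tested genes 14.1% were called higher and 15.8% lower, shares that apply to each list of this paragraph. The marker lists were counted in the main fit alone. The summed level of the 12 markers was 10368 to 10804 TPM in LIP libraries and 7778 to 7923 TPM in NL libraries. These sums, and those that follow, include the shift of 0.12 (log2) of the TPM scale. The most abundant, Mpo and Elane, which encode granule enzymes, had log2 fold changes of 0.32 and 0.39. Of 13 tested neutrophil markers 10 were higher and none lower, with a summed level of 1300 to 1364 TPM in LIP and 875 to 919 TPM in NL, and S100a8 and S100a9 at 0.21 and 0.40. Of 12 monocyte and macrophage markers 6 were higher and 1 lower, with sums of 337 to 357 TPM in LIP and 245 to 262 TPM in NL. F13a1 stood at 0.48 and Ly86 at 0.08 (adjusted p = 0.35 in edgeR). Of 7 tested natural killer markers 1 was higher, Nkg7 at 0.15, with sums of 347 to 377 TPM in LIP and 284 to 309 TPM in NL, nearly all of it from Nkg7, a count near the 14.1% of all tested genes called higher. No marker of these 4 lists was at 0 in all libraries, and Ly6g, which defines mature neutrophils, had between 0 and 3 counts. The part of these cells in the change of Fcgr3 and Fcgr2b was not tested.

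The 10 LSK markers were detected in every library. Kit and Ly6a, which encodes Sca-1, define the gate, and Kit stood at a log2 fold change of 0.18 (called) and Ly6a, which lacked whole counts, at -0.07 (not called). Cd34 and Flt3, surface proteins of early progenitors, were the most abundant and stood at -0.04 and 0.08 without a call. Of the 10 markers 3 were called higher and none lower, against 14.1% and 15.8% of all tested genes. The same shares apply to the counts that follow. In the remaining marker lists 2 of 6 T cell, 5 of 8 B cell, 1 of 7 dendritic, 1 of 6 mast cell and basophil, 1 of 5 megakaryocyte and 3 of 7 erythroid markers were higher, and 0, 0, 1, 3, 0 and 3 were lower.

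Outside the Fc gamma family, 3 of 8 tested Fc receptor genes were called, against 29.9% of all tested genes. Of 13 listed genes 8 were tested, of which 1 was higher and 2 were lower, near the 14.1% and 15.8% of all tested genes, with a median log2 fold change of -0.06, against a median of 0.00 over all tested genes. Fcrla, an Fc receptor-like protein of B cells, rose to 5.45 ± 0.767 CPM in LIP, against 3.05 ± 0.375 CPM in NL (SD, n = 3 each), a log2 fold change of 0.84. Fcrl1, another B-lineage Fc receptor-like gene, fell by 0.51 on the log2 scale, so the 2 B-lineage relatives moved in opposite directions. Ms4a2, the beta chain of the immunoglobulin E receptor of mast cells and basophils, fell by 0.25. Fcgrt, the neonatal Fc receptor that recycles immunoglobulin G, stood at 0.17 (adjusted p = 0.099), and Trim21, a cytosolic antibody receptor, at -0.06 (adjusted p = 0.40), both in edgeR. With the length offset, which called 13.2% of all tested genes higher, 2 were higher and 2 lower.

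Of 8 other adaptor genes, most with an ITAM, 3 were higher and none lower. The median was 0.29, and of all tested genes 14.1% were higher and 15.8% lower. Cd79a, a signalling chain of the B cell receptor, stood at 0.41 and Cd3e, of the T cell receptor, at 1.10 on only 6 to 22 counts. Nfam1, a myeloid and B-cell receptor with an ITAM of its own, averaged 94.1 ± 2.03 CPM in LIP and 83.8 ± 3.51 CPM in NL (SD, n = 3 each), a log2 fold change of 0.17. Cd79b stood at 0.13 (edgeR adjusted p = 0.0808).

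The next list held receptors that signal through adaptors such as Fcer1g and Tyrobp. Of 25 listed genes 14 were tested, with a median of 0.27. Of those tested, 4 were higher and none lower, against 14.1% and 15.8% of all tested genes. Trem3, a myeloid receptor that pairs with the Tyrobp adaptor, averaged 15.4 ± 0.450 CPM in LIP and 11.5 ± 1.22 CPM in NL (SD, n = 3 each), a log2 fold change of 0.43. Cd300lb, an activating myeloid receptor, stood at 0.49, Siglech, a receptor of plasmacytoid dendritic cells, at 0.60, and Clec5a, a myeloid lectin, at 0.28. In each of these 4 genes the groups did not overlap, a separation that 19.9% of all tested genes showed with LIP above. The 4 were named because they were called, so their separation adds little to the calls. Trem1 of the same list, named after its values were seen, was separated in the same direction without a call (edgeR adjusted p = 0.0568). Clec4e, a lectin that senses microbial glycolipids through the Fcer1g adaptor, averaged 26.6 ± 1.43 CPM in LIP and 26.6 ± 2.18 CPM in NL.

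**Figure D4:**
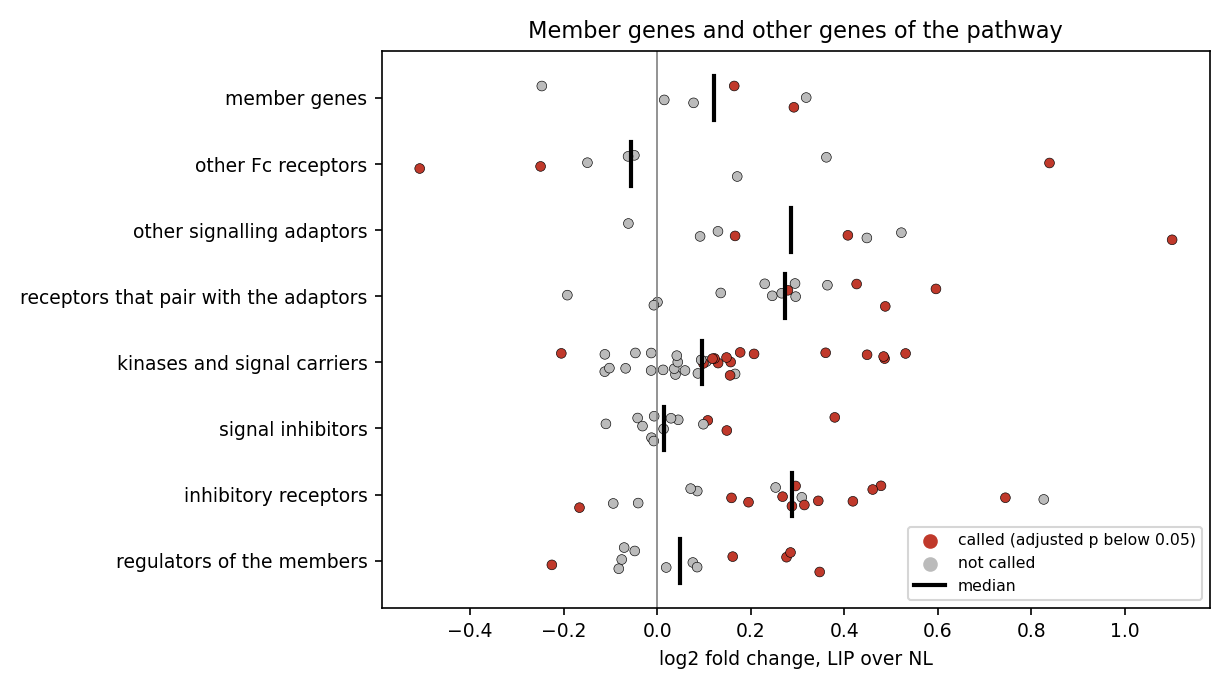
Log2 fold change, LIP over NL (horizontal axis), of the 6 member genes and of the tested genes of 7 other lists (rows), with 1 point per gene, red for called genes, and a black bar at each median. The medians lie between -0.06 for other Fc receptors and 0.29 for inhibitory receptors and other adaptors.

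Of 32 kinases and signal carriers downstream of ITAMs, 14 were higher and 1 lower, against 14.1% and 15.8% of all tested genes. The median was 0.10. Card9, which links Syk to NF-kB, averaged 35.0 ± 1.6 CPM in LIP and 24.2 ± 0.817 CPM in NL (SD, n = 3 each), a log2 fold change of 0.53. Prkcb, a protein kinase C, stood at 0.48 and Blnk, a B-cell linker, at 0.45. Gab2, a docking protein, stood at 0.36, Vav3, an exchange factor for Rac, at 0.21 and Pik3cd, a phosphoinositide kinase subunit, at 0.18. The most abundant members, Rac2 and Plcg2, stood at 0.12 and 0.16. Syk itself, named after its values were seen, averaged 313 ± 8.55 CPM in LIP and 305 ± 2.87 CPM in NL and was not called (log2 fold change 0.04, edgeR adjusted p = 0.388). The gene called lower was the kinase gene Tec, at -0.21, also named after its values were seen. While limma on log2 FPKM called no gene of the list lower, both length offsets gave 13 higher and 2 lower. Without LIP replicate 2 the list had 2 genes lower, and without LIP replicate 3 it had 3.

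Negative regulators were measured in 2 lists. Of 13 intracellular signal inhibitors 3 were higher and none lower, against 14.1% and 15.8% of all tested genes. Their median was 0.01. Inpp5d, which encodes the phosphatase recruited by the ITIM of the Fcgr2b receptor, averaged 307 ± 9.26 CPM in LIP and 285 ± 3.95 CPM in NL (SD, n = 3 each), a log2 fold change of 0.11. Dok3, an adaptor that dampens immune receptor signalling, stood at 0.38 and Cbl, a ubiquitin ligase, at 0.15, while Ptpn6 and Csk stood at -0.01 and -0.04 without a call. With the length offset 1 of the 13 was higher, against 13.2% of all tested genes. Of 19 tested inhibitory receptor genes 11 were higher and 1 lower, against the same 14.1% and 15.8%, with a median of 0.29. Clec4a2, an inhibitory lectin, stood at 0.46, Pirb, an inhibitory receptor for MHC class I, at 0.42, the adhesion receptor gene Ceacam1 at 0.34, Lair1, a collagen receptor, at 0.31, Pecam1 at 0.27 and Sirpa, the receptor of the CD47 signal, at 0.20. Pirb and Ceacam1 have near-identical relatives and lacked whole counts, so their values are uncertain. The most abundant, Clec12a, stood at -0.04 without a call. The gene called lower was Cd72, at -0.17, named after its values were seen and also without whole counts. No gene of the list was called lower with library totals alone, DESeq2, either length offset or limma on log2 FPKM, or without LIP replicate 1, LIP replicate 3 or NL replicate 2.

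Transcription factors known to act on these genes included Spi1, which encodes PU.1, a factor that drives myeloid genes through GGAA elements. Spi1 averaged 201 ± 6.27 CPM in LIP and 179 ± 1.09 CPM in NL (SD, n = 3 each), a log2 fold change of 0.16. Its LIP libraries all lay above its NL libraries, as in 19.9% of all tested genes. Irf8, a partner of PU.1, stood at 0.28, the granulocyte factor gene Cebpe at 0.28 and Klf4, a monocyte factor, at 0.35. Irf1, which is induced by interferon, fell by 0.23, and Elf1 stood at -0.07 without a call (edgeR adjusted p = 0.0959). Irf8 and Cebpe are also among the granulocyte-monocyte progenitor markers. In all, 4 of 12 listed regulators were higher and 1 was lower, against 14.1% and 15.8% of all tested genes. The median of the regulators was 0.05. With the length offset 4 were higher and 4 lower, and without LIP replicate 1 5 were higher and 3 lower.

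Promoter windows were read for 5 of the 6 genes, each from 250 bases before to 50 bases after the start site given by RefSeq on GRCm38.p6, and are printed because Fcgr2b, Fcgr4 and Fcgr3 stand side by side in the genome. They are Fcgr3 (chr1:171059354-171059653, minus strand, the first of 2 listed starts), Fcgr2b (chr1:170976022-170976321, minus strand), Fcgr1 (chr3:96293920-96294219, minus strand), Fcgr4 (chr1:171018676-171018975, plus strand) and Fcer1g (chr1:171234300-171234599, minus strand). The window of Fcgr3 lies inside the gene span given above, at an internal start, while the other windows lie at the outer end of their genes. Its second listed start was not searched, so its matches describe the internal start alone. Sequences run 5′ to 3′ on the gene's strand. Capitals mark matches, on either strand, to a PU.1-type motif (GAGGAA), a C/EBP-type motif (TTGCNNAA), a RUNX-type motif (TGTGGT) and a GAS-type motif (TTCNNNGAA), none of which overlapped here.
Fcgr3: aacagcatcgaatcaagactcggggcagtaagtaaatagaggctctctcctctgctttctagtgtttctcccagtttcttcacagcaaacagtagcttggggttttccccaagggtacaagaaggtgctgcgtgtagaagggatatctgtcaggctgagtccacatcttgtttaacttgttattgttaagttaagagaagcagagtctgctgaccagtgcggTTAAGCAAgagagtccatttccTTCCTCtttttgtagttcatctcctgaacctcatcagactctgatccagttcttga
Fcgr2b: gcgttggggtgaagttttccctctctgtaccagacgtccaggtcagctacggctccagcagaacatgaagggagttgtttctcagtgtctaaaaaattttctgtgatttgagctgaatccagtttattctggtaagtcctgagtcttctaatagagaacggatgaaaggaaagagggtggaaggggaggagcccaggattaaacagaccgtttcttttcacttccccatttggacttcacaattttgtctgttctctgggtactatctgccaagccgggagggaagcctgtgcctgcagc
Fcgr1: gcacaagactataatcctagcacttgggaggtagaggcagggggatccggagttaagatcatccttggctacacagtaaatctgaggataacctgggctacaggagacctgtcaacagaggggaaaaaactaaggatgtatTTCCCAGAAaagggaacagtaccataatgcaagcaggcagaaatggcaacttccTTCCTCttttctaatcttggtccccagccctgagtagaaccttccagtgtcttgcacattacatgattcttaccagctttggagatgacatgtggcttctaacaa
Fcgr4: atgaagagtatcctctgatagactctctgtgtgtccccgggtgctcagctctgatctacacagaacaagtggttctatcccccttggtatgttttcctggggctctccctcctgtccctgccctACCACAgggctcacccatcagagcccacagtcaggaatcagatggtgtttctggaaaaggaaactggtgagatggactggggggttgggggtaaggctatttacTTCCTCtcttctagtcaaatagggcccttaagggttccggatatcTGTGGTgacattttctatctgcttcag
Fcer1g: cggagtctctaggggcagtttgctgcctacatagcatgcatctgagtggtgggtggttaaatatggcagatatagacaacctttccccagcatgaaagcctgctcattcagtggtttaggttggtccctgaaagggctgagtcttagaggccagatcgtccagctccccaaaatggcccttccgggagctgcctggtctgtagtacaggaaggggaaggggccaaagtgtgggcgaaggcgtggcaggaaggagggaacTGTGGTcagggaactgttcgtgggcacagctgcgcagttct

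The PU.1-type motif was present in the windows of Fcgr3, Fcgr1 and Fcgr4, beginning 6, 55 and 22 bases before the start site, in the reverse orientation in all 3. It was found in 28.3% of the 27025 promoter windows of that source, and in 26.7% of the 10088 windows of tested genes. In windows of tested genes, C/EBP-type matches stood in 8.5%, RUNX-type in 12.7% and GAS-type in 6.8%. The shares that follow are of all windows. The window of Fcgr3 also held a C/EBP-type match 28 bases before the start, a motif in 10.8% of windows, and that of Fcgr1 a GAS-type match 109 bases before it, in 8.5% of windows. RUNX-type matches, in 16.9% of windows, stood in Fcgr4 at 126 bases before and 24 bases after the start and in Fcer1g at 10 bases after it. The window of Fcgr2b held no match to these letters. The shorter GGAA, named above for PU.1, was not searched for by itself, and it also stands in the windows of Fcgr2b and Fcer1g. The bearing of these motifs on the differences between LIP and NL was not tested.

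The genes whose 6 library values lay closest to each member, after the NL mean of each gene was subtracted on the log2 CPM scale, were listed as a description among 10214 non-member genes of at least 5 CPM. For Fcgr3 they were Nav1, Zfp512b and Mpeg1, a pore-forming protein gene of phagocytes, with root mean square differences of 0.0235, 0.0240 and 0.0245. For Fcgr2b they were Rabl2, Polr3b and Ank1, with differences of 0.0263, 0.0381 and 0.0384. For Fcer1g they were Abhd17b, Taf1c and Ubl7 (0.0231, 0.0235 and 0.0264), and for Tyrobp Ube2m, Vegfc and Srm (0.0119, 0.0149 and 0.0156).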

How the data were processed

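The deposited table held, for 6 libraries, the authors' estimated counts, FPKM and TPM per gene, with units per the file headers. The submitters' processing notes list STAR, HTSeq and the GRCm38 build. The tool that estimated the counts was not given in the sources used here. The authors' 6 columns of group means were not used. Estimated counts were rounded to whole numbers before count tests. Library totals were 17780853 to 18841103 counts, where 3 counts equal 0.159 to 0.169 CPM, counting error only. filterByExpr in edgeR 4.0.16 (R 4.3.3) kept 12564 genes. Group differences were tested in edgeR by robust quasi-likelihood on TMM-scaled counts, with group as the only term and Benjamini-Hochberg adjustment over all tested genes; a call was an adjusted p below 0.05. The fit was run on simulated counts with known fold changes to check that it recovered them; its false calls are not reported here. All replicate pairs differed by more than sampling noise, with chi-square per degree of freedom of 1.87 to 2.77.

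The members and gene lists were chosen with earlier results of these data known. Named genes were all members, for each pathway list the called genes (the 6 with the smallest p where more were called) and the 2 most abundant, for each marker list the 2 most abundant, and for each member of at least 5 CPM the 3 genes closest over the libraries; exceptions are stated. Effective length came from deposited counts and FPKM, and the length offset was a lowess trend (span 0.3) per library. Alternatives also used DESeq2 1.42.0 and limma 3.58.1, the latter on voom values and on log2(FPKM + 0.1). Positions and promoters are from RefSeq, coding sequences from GENCODE M21.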

Additional observations from a re-analysis of the deposited data

How the results depend on the processing

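Leaving out 1 library gave 2987 to 3397 called genes and 1 to 2 called members, and log2 fold changes of 0.16 to 0.50 for Fcgr1, 0.11 to 0.23 for Fcgr2b, 0.27 to 0.31 for Fcgr3, -0.52 to -0.04 for Fcgr4, 0.048 to 0.14 for Fcer1g and -0.022 to 0.058 for Tyrobp. Tyrobp turned negative only without LIP replicate 3 (-0.022). Called list members ranged from 2 to 3 for other Fc receptors, 2 to 4 for other adaptors, 3 to 5 for pairing receptors, 12 to 17 for kinases, 2 to 4 for inhibitors, 10 to 12 for inhibitory receptors and 4 to 8 for regulators, the 8 arising without LIP replicate 1. DESeq2 called 2484 genes and 1 member, with Fcgr2b at 0.17. Both length offsets gave 4 called members, 1 signal inhibitor and 8 regulators, with Fcer1g at 0.28 or 0.26 and Tyrobp at 0.25 or 0.23, the second with ribosomal protein genes left out of the trend, a setting chosen after seeing the data. Library totals alone split the calls into 2756 higher and 1301 lower, against 1776 and 1984, limma on log2 FPKM into 2102 and 1117, and Fcer1g stood at 0.12 with library totals. limma on log2 FPKM called 5 other adaptors. Differences of mean log2 TPM were 0.30 for Fcgr2b, 0.42 for Fcgr3, 0.21 for Fcer1g and 0.15 for Tyrobp, or 0.18, 0.30, 0.09 and 0.02 relative to the median of all genes. The cause of these shifts was not tested. Same-numbered libraries showed no shared deviation (correlations of 0.03, -0.04 and -0.06 over 8077 genes). Differently numbered libraries ranged from -0.12 to 0.15, so this measure is too noisy to exclude a pairing. With the replicate block Fcgr3 stood at 0.29 and Fcgr2b at 0.16, 2 members were called, and no member call changed. Depth limits Fcgr1 and Fcgr4, which had 17 to 32 counts per library.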

Other observations

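Of 6 markers of mast cells and basophils 1 was called higher and 3 lower, against 14.1% and 15.8% of all tested genes. Of these, the basophil protease gene Prss34 averaged 116 ± 4.23 CPM in LIP and 103 ± 2.85 CPM in NL (SD, n = 3 each), a log2 fold change of 0.17, while Cpa3, the mast cell carboxypeptidase, averaged 74.7 ± 1.97 CPM in LIP and 94.7 ± 2.87 CPM in NL and fell by 0.34. Both were called, as was the fall of the immunoglobulin E receptor chain gene Ms4a2. Fcer1a, which encodes the binding chain of the same receptor and pairs with the adaptor from Fcer1g, had 75, 77 and 72 counts in LIP libraries and 78, 61 and 78 counts in NL libraries, and was not called (log2 fold change -0.05, edgeR adjusted p = 0.841).

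Of 7 erythroid markers 3 were higher and 3 lower, against 14.1% and 15.8% of all tested genes, with a median log2 fold change of -0.01. Both of the most abundant, Car1 and Klf1, fell, by 0.15 and 0.17, while Slc4a1, Rhag and Ermap stood at 0.51, 0.25 and 0.13, all called and named after their values were seen. Of the most abundant lymphoid markers, Igll1, a surrogate light chain of B-cell precursors, stood at 0.41 and Cd4 at 0.30, both called, while the kinase gene Lck stood at -0.07 without a call. Of 7 dendritic cell markers 1 was higher and 1 lower, near the 14.1% and 15.8% of all tested genes, with a median of 0.15. Siglech, the higher one, stood at 0.60, and the chemokine receptor gene Ccr9 fell by 0.29. Bst2 stood at -0.03 without a call. The megakaryocyte genes Itga2b and Pf4 stood at 0.07 and -0.20, and the natural killer gene Klrd1 at 0.16, none of them called.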
